A study of Mus musculus with 12 samples.

Results

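The transcripts described here are those of 6 genes, the serum- and glucocorticoid-regulated kinases *Sgk1* and *Sgk3* and the N-myc downstream regulated genes *Ndrg1*, *Ndrg2*, *Ndrg3* and *Ndrg4*, out of 28995 genes listed in the deposited tables. They were found by gene symbol, and the set was chosen from earlier results of these libraries in which *Sgk1* and *Ndrg2* were higher with aldosterone. Their differences between treatments are therefore given as a description, with intervals. Counts past a p threshold and the few adjusted p-values printed for these differences belong to that description and are not evidence. The cells were primary fibroblasts from hindlimb muscles of 2 wild-type C57 BL/10 mice at postnatal day 3, purified by adherence to plastic and kept for a day in medium with charcoal-stripped serum, which is low in steroids. They then received 1 µM aldosterone, an agonist of the mineralocorticoid receptor, 1 µM spironolactone, an antagonist of that receptor, or DMSO vehicle for 48 hours. Poly(A) RNA was sequenced from 4 plates per treatment, 12 libraries in all. The labels give each library a sample number and a biological replicate number, both 1 or 2, without saying which of them marks the mouse, so n = 4 counts plates and not animals.

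SGK kinases belong to the AGC family, with AKT and the ribosomal S6 kinases. SGK1 is unusual among kinases in that its abundance is set to a large extent by transcription, and it is an early aldosterone-induced gene in kidney epithelium, where it phosphorylates the ubiquitin ligase NEDD4L and thereby keeps the epithelial sodium channel at the membrane. The kinase itself is switched on by phosphorylation through mTORC2 and PDK1, downstream of PI3-kinase. SGK3 differs in carrying a PX domain that binds phosphoinositides of endosomes. The NDRG proteins share an alpha/beta hydrolase fold without known hydrolase activity, and NDRG1 and NDRG2 are substrates that SGK1 phosphorylates, for which phosphorylated NDRG1 is widely used as a readout of SGK activity. *NDRG1* transcription is also known for its induction in hypoxia and its repression by MYC. The RNA measured here does not show kinase activity or phosphorylation.

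Steroid receptors of the glucocorticoid and mineralocorticoid type bind a palindrome of the half-sites AGAACA and TGTTCT with 3 bases between them. The RefSeq promoter windows of build GRCm38.p6, from 250 bases before to 50 bases after an annotated start, were searched on both strands for this palindrome and for the single half-site, which is contained in the palindrome. Of 32851 windows of all genes, 3 (0.00913%) held the exact palindrome, 606 (1.84%) held it with at most 2 mismatches and 6233 (19.0%) held at least 1 half-site. *Sgk1* was 1 of the 3 genes with an exact palindrome, beside *Acnat2* and *Gm35041*. It lay in 1 of the 6 annotated *Sgk1* windows, its first base 189 bases before the start, and another *Sgk1* window held a palindrome with at most 2 mismatches 183 bases before its start. At least 1 half-site occurred in 3 of the 6 *Sgk1* windows. None of the 3 *Ndrg2*, 2 *Ndrg3* or 4 *Ndrg4* windows held a half-site or a palindrome with at most 2 mismatches, which says only that these letters are not in these windows. Windows were matched for 4 of the 6 genes, without *Sgk3* and *Ndrg1*. The 250 bases before the start are shown for both *Sgk1* windows with a palindrome and for an *Ndrg2* window without one, since these genes were the pair with the largest differences in RNA. Capitals mark half-sites and palindromes, and the bases read 5′ to 3′ on the strand of the gene. The upper window lies at chr10:21993640-21993889 on the plus strand, the next at chr10:21985854-21986103 on the plus strand and the last at chr14:51914005-51914254 on the minus strand.
Sgk1 window with the exact palindrome: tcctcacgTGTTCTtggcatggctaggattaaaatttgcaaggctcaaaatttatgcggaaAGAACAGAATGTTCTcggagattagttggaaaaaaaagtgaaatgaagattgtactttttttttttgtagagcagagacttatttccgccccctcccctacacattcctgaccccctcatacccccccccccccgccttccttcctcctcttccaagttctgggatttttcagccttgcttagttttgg
Sgk1 window with a palindrome of at most 2 mismatches: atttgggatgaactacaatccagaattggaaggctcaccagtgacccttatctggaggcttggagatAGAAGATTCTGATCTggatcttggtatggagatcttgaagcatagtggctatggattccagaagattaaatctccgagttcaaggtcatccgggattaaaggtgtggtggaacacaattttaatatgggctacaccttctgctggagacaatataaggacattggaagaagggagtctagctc
Ndrg2 window: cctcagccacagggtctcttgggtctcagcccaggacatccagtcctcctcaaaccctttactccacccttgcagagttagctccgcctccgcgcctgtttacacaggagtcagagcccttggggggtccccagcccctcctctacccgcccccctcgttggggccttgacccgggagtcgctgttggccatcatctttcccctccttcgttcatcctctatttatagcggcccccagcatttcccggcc
These data do not show which start each library used.

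Total reads counted on genes were between 19136923 and 30219185 per library. All 6 transcripts averaged over 10 normalized counts in each treatment, so none was lost to a filter on low values. The fibroblast markers *Pdgfra*, *Col1a1*, *Col1a2*, *Col3a1*, *Dcn*, *Lum*, *Thy1* and *Fn1* were present in all groups, with a summed level of 5518 to 7759 FPKM per library, where FPKM is the read number scaled to gene length and to the reads on genes of the library. Markers of myogenic, endothelial, macrophage and Schwann cells summed to between 3.93 and 20.9 FPKM per list and library. *Ptprc*, which defines leukocytes, had no read in the aldosterone group. The macrophage list that holds it summed to 5.99 to 6.88 FPKM with aldosterone and 5.86 to 7.79 with vehicle. Of that list, 6 markers were measured in both aldosterone comparisons and 5 in spironolactone against vehicle, and the sums cover these 5. The marker left out of the sums was thus measured only where aldosterone libraries took part. In bulk RNA, fewer cells of a type and less RNA per cell cannot be told apart.

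*Ndrg2* had the largest difference of the 6. Normalized counts, which are reads divided by the size factor of the library, were 74.6, 77.0, 86.4 and 66.3 in the vehicle libraries, 1195, 1276, 1358 and 1375 with aldosterone, and 82.3, 96.6, 95.7 and 89.3 with spironolactone. Every aldosterone library lay far above all the others, and the vehicle and spironolactone ranges overlapped. The mean was 76.1 ± 8.27 (SD, n = 4) with vehicle, 1301 ± 82.9 with aldosterone and 91.0 ± 6.64 with spironolactone. Against vehicle the log2 fold change of *Ndrg2* was 4.08 (standard error 0.0948, 95% interval 3.88 to 4.28), a ratio of 16.9, and against spironolactone it was 3.82 (standard error 0.0855). Ordered by the size of the increase over vehicle, *Ndrg2* was number 16 of 27319 genes. The gene (ENSMUSG00000004558) spans 52142728 to 52151615 of chromosome 14 on the minus strand in the coordinates of the tables, for which the submitters' processing notes name the mouse build mm39 while the methods name mm9.

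*Sgk1* (ENSMUSG00000019970, chromosome 10, 21758083 to 21875802, plus strand) started from a much higher level. The vehicle libraries held 1629, 1693, 1372 and 1284 normalized counts, the aldosterone libraries 6346, 6218, 5359 and 5600.4, and the spironolactone libraries 1657, 1900.2, 1279 and 1369. Aldosterone libraries were again all above the rest, while vehicle and spironolactone overlapped. Means were 1495 ± 197 (SD, n = 4) with vehicle, 5881 ± 476 with aldosterone and 1551 ± 283 with spironolactone. The log2 fold change of *Sgk1* was 1.98 against vehicle (standard error 0.0841, 95% interval 1.80 to 2.16), a ratio of 3.95, and 1.94 against spironolactone (standard error 0.0988, 95% interval 1.73 to 2.14). It was number 143 of 27319 genes by the size of the increase over vehicle.

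**Figure D1:**
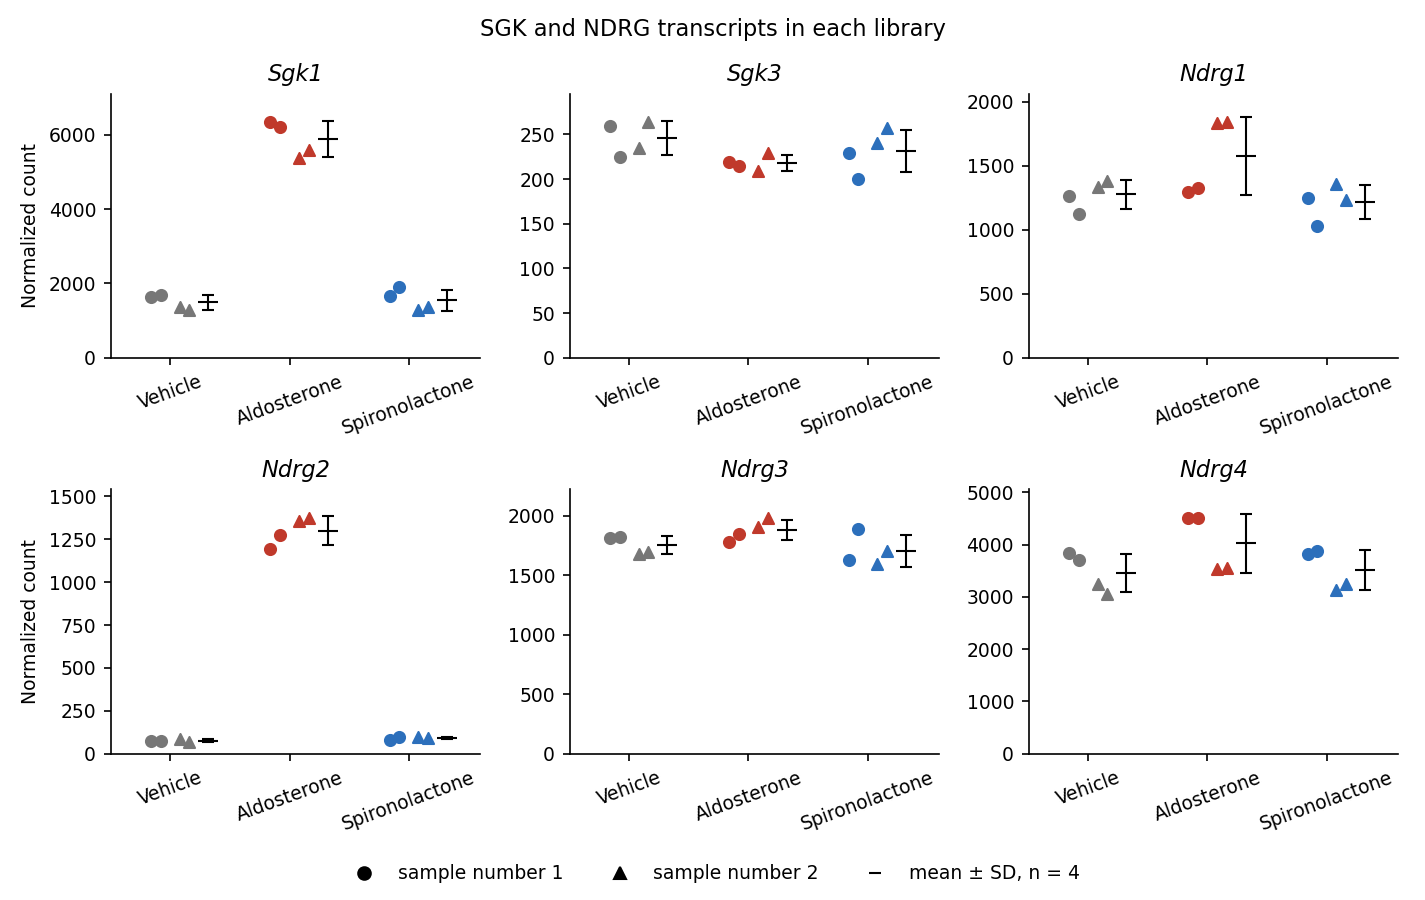
Normalized count (y axis, starting at 0) of each of the 6 genes in 4 vehicle, 4 aldosterone and 4 spironolactone libraries. Circles are sample number 1, triangles sample number 2, and the bar beside them is the mean ± SD (n = 4). Aldosterone libraries stand apart for *Sgk1* (5359 to 6346) and *Ndrg2* (1195 to 1375), and sample numbers separate for *Sgk1* and *Ndrg4* in every treatment.

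The other 4 transcripts differed less. *Ndrg1* (ENSMUSG00000005125, chromosome 15, 66801167 to 66841489, minus strand) held 1262, 1127, 1338 and 1380.0 normalized counts with vehicle, 1298, 1327, 1836 and 1845 with aldosterone, and 1251, 1032, 1356 and 1229.6 with spironolactone. Both aldosterone libraries of sample number 2 were above all other libraries, and those of sample number 1 lay inside the vehicle range. Its log2 fold change against vehicle was 0.29 (standard error 0.109, 95% interval 0.06 to 0.52) and against spironolactone 0.36 (standard error 0.111, 95% interval 0.12 to 0.59).

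*Ndrg4* (ENSMUSG00000036564, chromosome 8, 96403608 to 96441747, plus strand), which is best known from heart and nervous system, held 3833, 3708, 3246 and 3061 normalized counts with vehicle, 4515, 4506, 3528 and 3555 with aldosterone, and 3814, 3875, 3134 and 3252 with spironolactone. Over all libraries the groups overlapped, but within each sample number both aldosterone libraries were above both vehicle and both spironolactone libraries. The log2 fold change of *Ndrg4* was 0.21 against vehicle (standard error 0.0912, 95% interval 0.02 to 0.41) and 0.19 against spironolactone (standard error 0.0906, 95% interval -0.0016 to 0.38).

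*Ndrg3* (ENSMUSG00000027634, chromosome 2, 156769265 to 156833976, minus strand) ranged from 1681 to 1822 normalized counts with vehicle, 1782 to 1982 with aldosterone and 1591 to 1892 with spironolactone. These ranges overlapped, and the log2 fold change of *Ndrg3* was 0.10 against vehicle (95% interval -0.02 to 0.22) and 0.14 against spironolactone (95% interval 0.0075 to 0.28). *Sgk3* (ENSMUSG00000025915, chromosome 1, 9868332 to 9971070, plus strand) ranged from 225 to 264 with vehicle, 209 to 229 with aldosterone and 200.4 to 257 with spironolactone. Its log2 fold change was -0.17 against vehicle (95% interval -0.37 to 0.03) and -0.08 against spironolactone (95% interval -0.30 to 0.13), so it was the member of the 6 whose estimate was below 0 in both. Within both sample numbers, both aldosterone libraries of *Sgk3* were below both vehicle libraries, at 215 to 219 against 225 to 259 and at 209 to 229 against 234 to 264. The *Sgk3* locus overlaps the noncoding *Snhg6* on the opposite strand, which held up to 1051 reads in a library, and since the sources used here do not say whether counting used the strand, the *Sgk3* values are uncertain. *Sgk2* was not analysed here.

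Counted with limma across all genes, with p-values adjusted by Benjamini-Hochberg and a threshold of 0.05, 2 of the 6 transcripts, *Sgk1* and *Ndrg2*, were higher with aldosterone than with vehicle, where 5.68% of all genes tested were, and 0 were lower, where 4.74% of all genes were. Both also passed the log2 fold change of at least 1 that the study used, as did 1.4% of all genes on the higher side. Against spironolactone the same 2 were higher (4.93% of all genes, and 1.38% with the fold threshold) and 0 were lower (3.96% of all genes). At an unadjusted p under 0.05 in limma, 4 of the 6 passed in each of these comparisons. Of all genes, 5705 of 27319 did so against vehicle and 5175 of 27631 against spironolactone. At the adjusted threshold edgeR counted 2 of the 6 against vehicle, beside 1637 higher and 1418 lower of 15416 genes. Against spironolactone edgeR counted 2, beside 1411 higher and 1179 lower of 15343. DESeq2 counted 2 against vehicle, beside 1719 higher and 1512 lower of 25128 genes. Against spironolactone DESeq2 counted 3, beside 1517 higher and 1249 lower of 25130. For *Sgk1* and *Ndrg2* the 4 aldosterone libraries were above the 4 vehicle libraries without overlap, as for 8.19% of all genes. The same held against spironolactone, as for 7.38% of all genes. Within both sample numbers, 4 of the 6, with *Ndrg1* and *Ndrg4* added, had both aldosterone libraries above both vehicle libraries, which 11.9% of all genes showed, and 1 of the 6, *Sgk3*, had them below, as did 12.1% of all genes. With the sample number as a block, which pairs the libraries, these 4 were also past the adjusted threshold against vehicle, with 8.68% of all genes higher and 8.02% lower, and against spironolactone, with 7.58% of all genes higher. That gain rests on the fixed block. With plates taken as correlated within a sample number, an alternative added after seeing the data, *Ndrg1* and *Ndrg4* did not pass against vehicle and of these only *Ndrg1* passed against spironolactone, and with plates averaged neither passed in either comparison. Since these treatments chose the genes, the counts are no evidence about the families.

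**Figure D2:**
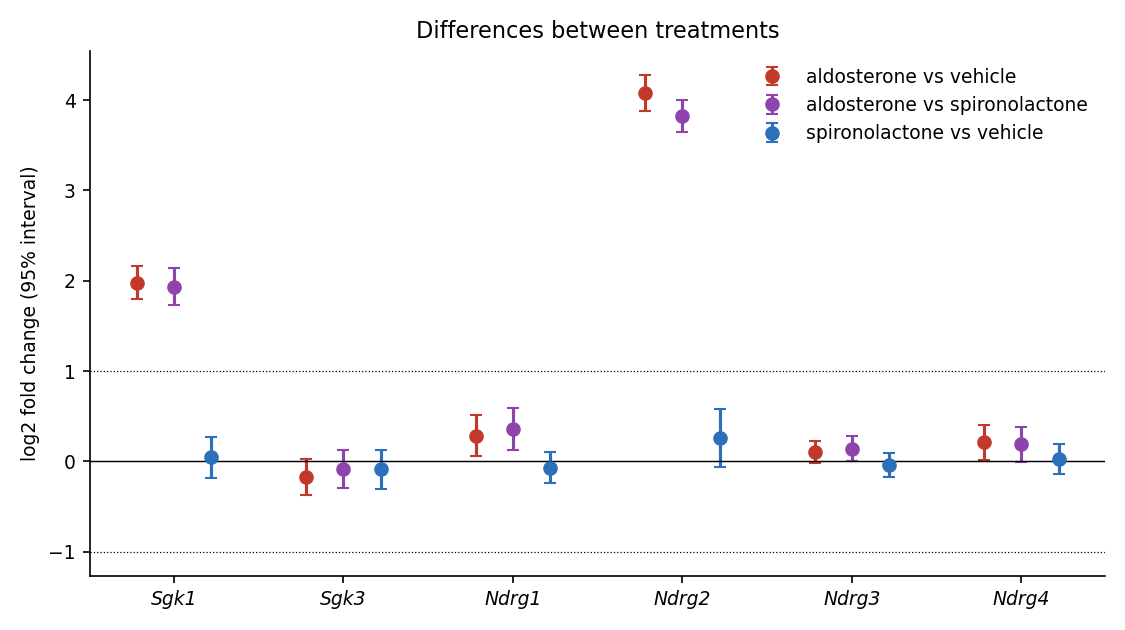
The log2 fold change (y axis) of each gene with its 95% interval in aldosterone against vehicle (red), aldosterone against spironolactone (purple) and spironolactone against vehicle (blue), from limma on 4 libraries per group. Dotted lines mark the study's fold threshold. *Ndrg2* (4.08 and 3.82) and *Sgk1* (1.98 and 1.94) lie above it in both aldosterone comparisons, and the other intervals stay between the dotted lines.

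Spironolactone alone, given as a control for receptor activation by remaining steroid, was compared with vehicle. None (0 of 6) passed limma's adjusted threshold, 0 had an unadjusted p under 0.05, and edgeR and DESeq2 also counted 0. Of all genes 0% passed in limma, with 1251 of 27598 at an unadjusted p under 0.05, 0 called by edgeR and 12 higher and 1 lower by DESeq2. The log2 fold change of *Ndrg2* against vehicle was 0.26 (95% interval -0.06 to 0.58). That of *Sgk1* was 0.05 (95% interval -0.18 to 0.28), and the other 4 lay between -0.09 and 0.03. Within both sample numbers, both spironolactone libraries of *Ndrg2* were above both vehicle libraries (82.3 and 96.6 against 74.6 and 77.0, and 95.7 and 89.3 against 86.4 and 66.3), which held for 1 of the 6 and for 3.38% of all genes. With the sample number as a block 0 of the 6 passed in limma, where 63 of 27598 genes were higher and 34 lower. The adjusted p of *Ndrg2* in that limma fit was 0.76. A p that misses the threshold does not show that spironolactone and vehicle act alike. The comparisons share the vehicle or the aldosterone libraries and are not independent of each other.

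Per length of gene, the order of the 6 transcripts differed between treatments. With vehicle, *Ndrg4* was highest at 29.6 ± 2.79 FPKM (SD, n = 4), followed by *Sgk1* at 12.8 ± 1.56, *Ndrg3* at 8.75 ± 0.286, *Ndrg1* at 8.12 ± 0.773, *Ndrg2* at 0.939 ± 0.105 and *Sgk3* at 0.720 ± 0.0551. With aldosterone, *Sgk1* came first at 48.8 ± 3.02 FPKM, then *Ndrg4* at 33.4 ± 3.95, *Ndrg2* at 15.6 ± 1.31, *Ndrg1* at 9.76 ± 2.09, *Ndrg3* at 9.13 ± 0.609 and *Sgk3* at 0.620 ± 0.0326. *Ndrg2* thus moved from the fifth place to the third, past *Ndrg1* and *Ndrg3*, and *Sgk1* passed *Ndrg4*. The order with spironolactone was that of vehicle. The ranges of *Ndrg1* and *Ndrg3* overlapped in every treatment, and all other neighbours in the order were apart.

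Summed over the NDRG family, the level was 47.5 ± 2.38 FPKM with vehicle, 67.9 ± 0.921 with aldosterone and 47.7 ± 2.56 with spironolactone. *Ndrg2* made up 1.98 ± 0.237% of this sum with vehicle, 23.0 ± 1.89% with aldosterone and 2.37 ± 0.252% with spironolactone. *Ndrg4* held 62.4 ± 2.80% with vehicle and 49.2 ± 5.79% with aldosterone. Of the difference of 20.5 FPKM between aldosterone and vehicle, *Ndrg2* accounted for 71.6%, *Ndrg4* for 18.5%, *Ndrg1* for 8.02% and *Ndrg3* for 1.83%. Of both SGK transcripts together, *Sgk1* made up 94.6 ± 0.922% with vehicle and 98.7 ± 0.109% with aldosterone, and the level of *Sgk1* was 17.9 ± 3.21 times that of *Sgk3* with vehicle and 78.9 ± 6.82 times with aldosterone. These shares rest on 1 length per gene from the tables, and the use of shorter isoforms would alter them.

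**Figure D3:**
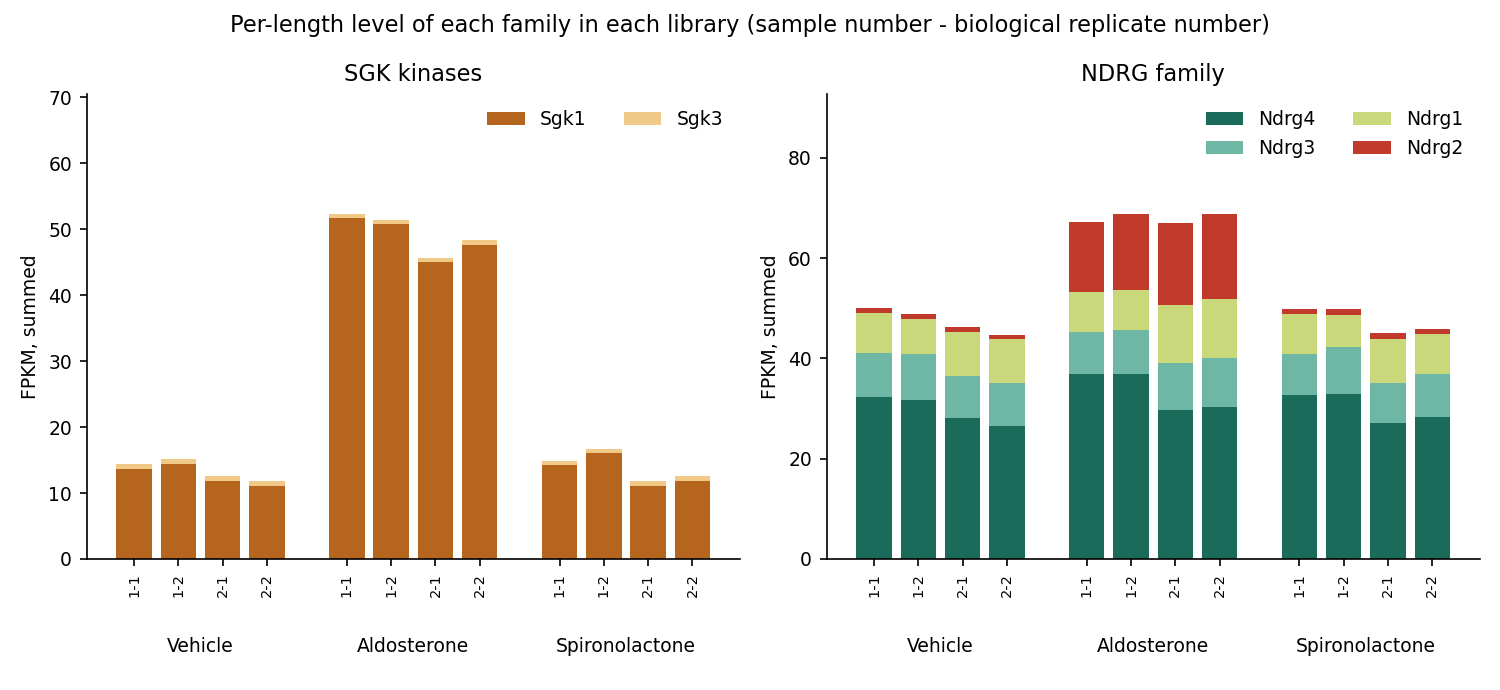
Stacked FPKM (y axis, starting at 0) of the SGK kinases (left) and the NDRG family (right) in each of the 12 libraries, named by sample number and biological replicate number. The *Ndrg2* segment grows from a mean of 0.939 FPKM with vehicle to 15.6 FPKM with aldosterone, and the *Ndrg4* segment remains the largest of its family in all groups.

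The sample number was not used in choosing the genes, so a difference between the numbers could be tested. Over all 12 libraries, with treatment in the fit, 3 of the 6 transcripts passed an adjusted p of 0.05 in limma. *Sgk1* was lower in sample number 2, by -0.31 on the log2 scale (SE 0.0415, adjusted p = 1.5e-06), and so was *Ndrg4*, at -0.29 (SE 0.0322, adjusted p = 7.05e-08), where 6.99% of all genes were lower. For both, the libraries of number 2 were below those of number 1 within each of the 3 treatments. *Ndrg1* was higher in sample number 2, by 0.29 on the log2 scale (SE 0.0526, adjusted p = 2.07e-04), where 6.09% of all genes were higher, and its numbers overlapped with spironolactone. *Ndrg2* (0.07, 95% interval -0.10 to 0.23), *Ndrg3* (-0.03, 95% interval -0.12 to 0.05) and *Sgk3* (0.09, 95% interval -0.06 to 0.24) did not pass. If the sample number marks the mouse, this compares 1 animal with 1 animal, and the p-values measure the spread between plates.

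Within sample number 1 the log2 fold change with aldosterone against vehicle was 4.01 for *Ndrg2* and 1.92 for *Sgk1*, and within sample number 2 it was 4.16 and 2.04. For *Ndrg4* these values were 0.26 and 0.17. For *Ndrg1* they were 0.14 and 0.44, and for *Ndrg3* -0.01 and 0.21. The difference between the numbers was tested as an interaction in limma, in which 0 of the 6 passed, as 0.0146% of all genes did (4 of 27319). An unadjusted p under 0.05 was found for 1356 of all 27319 genes and for 2 of the 6. The 2 were *Ndrg1*, with a difference of 0.30 (standard error 0.0954, adjusted p = 0.895), and *Ndrg3*, with a difference of 0.21 (standard error 0.0808, adjusted p = 0.895). By edgeR 0 of the 6 passed as well, beside 5 of 16311 genes with a difference above 0 and 7 with one below 0. A larger *Ndrg1* or *Ndrg3* response in sample number 2 was thus not shown.

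**Figure D4:**
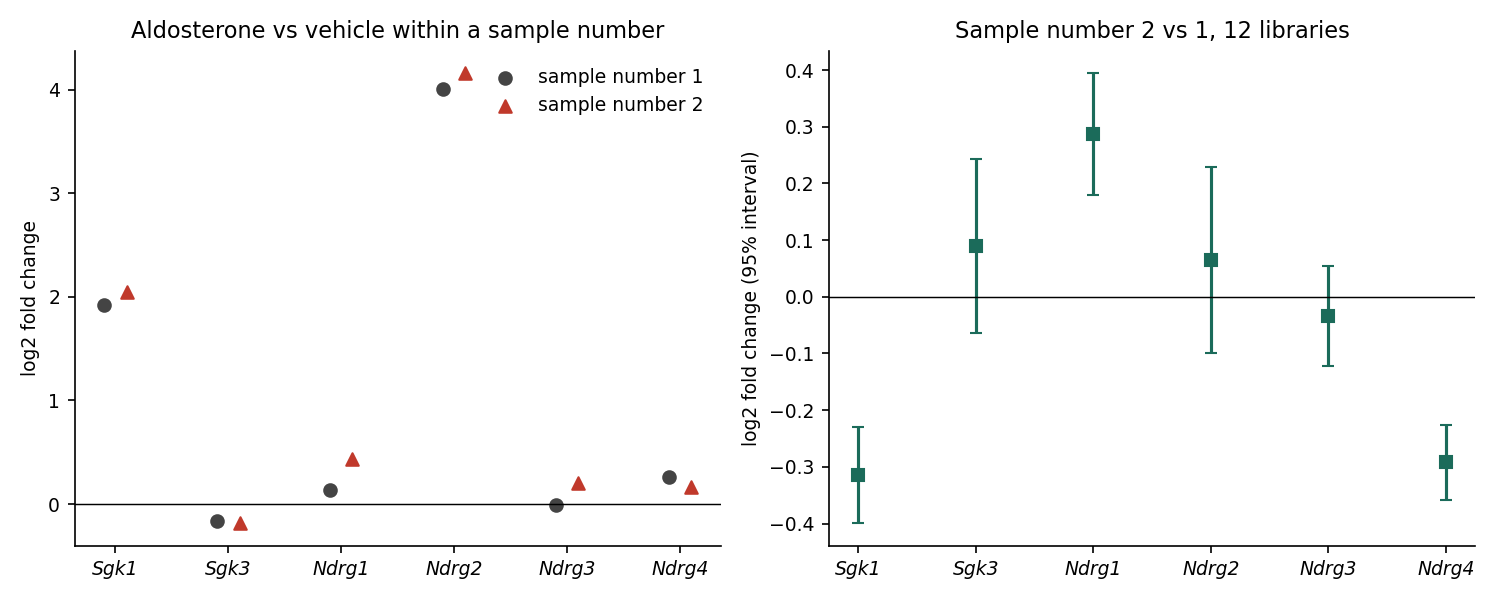
Left, log2 fold change of each gene with aldosterone against vehicle within sample number 1 (circles) and sample number 2 (triangles), 2 libraries per treatment each. Right, log2 fold change of sample number 2 against 1 over 12 libraries with its 95% interval. *Sgk1* and *Ndrg4* lie below 0 and *Ndrg1* above 0 on the right, with intervals that exclude 0.

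Over the 12 libraries, the log2 levels most like those of *Ndrg2* were of *Tsc22d3* (Pearson's r = 0.999) and *Glul* (r = 0.998), compared over 15276 genes whose mean reached 10 normalized counts. *Tsc22d3* encodes the glucocorticoid-induced leucine zipper and *Glul* glutamine synthetase. Most like *Sgk1* were *Postn* (r = 0.998), which encodes the matrix protein periostin, and *Spsb1* (r = 0.995). For *Ndrg4* they were *Mfap5* (r = 0.985), which encodes a microfibril protein, and *Oxr1* (r = 0.980), and for *Ndrg1* *Sepsecs* (r = 0.954) and *Rnf139* (r = 0.948). *Sgk3* was most like *Usp42* (r = 0.933) and *Cttnbp2nl* (r = 0.879), and *Ndrg3* most like *Napepld* (r = 0.925) and *Nmb* (r = 0.919). The points share the treatments and sample numbers of the 12 libraries, so these values describe a common pattern over libraries.

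Genes around the SGK and NDRG proteins were grouped in lists, of which 6 are described. Of 77 measured genes in these, 21 (27.3%) were higher and 8 (10.4%) lower with aldosterone than with vehicle at an adjusted p of at most 0.05 in limma, beside the 5.68% higher and 4.74% lower of all genes given above. Among genes with a mean of 10 normalized counts or more, fitted alone, 10.6% were higher and 9.27% lower. Steroid receptors and receptor targets made up 7 of the 21. The lists were drawn up with results of these libraries known, and *Fkbp5*, *Per1* and *Hif3a* are among the genes the study named, so their counts are not independent evidence.

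Upstream of SGK, 4 of 19 genes of PI3-kinase, mTORC2, PDK1 and WNK signalling rose and 1 fell, with a median of -0.04. *Deptor*, an inhibitory subunit of mTOR complexes, rose from 266 ± 29.4 to 875 ± 89.0 normalized counts (SD, n = 4, log2 fold change 1.71, adjusted p = 2.69e-09 in limma). *Wnk1*, a kinase that activates SGK1, had a log2 fold change of 0.49 (adjusted p = 4.32e-04) and rose, as did *Pik3r1* (0.82) and *Mtor* (0.33), both named after their values were seen. *Pik3r3*, a regulatory subunit of PI3-kinase, fell by 0.60 on the log2 scale (adjusted p = 5.86e-05).

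Among 17 other SGK targets, 3 rose and 1 fell, with a median of -0.05. The shares of all genes were again 5.68% higher and 4.74% lower, or 10.6% and 9.27% at a mean of at least 10 normalized counts. *Wnk4*, a regulator of sodium chloride cotransport in kidney, rose from 207 ± 1.84 to 861 ± 115 normalized counts (SD, n = 4, log2 fold change 2.04, adjusted p = 2.07e-10 in limma). The forkhead factors *Foxo3* (0.55, adjusted p = 1.98e-04) and *Foxo4* (0.36, adjusted p = 0.0024) rose less, and *Braf*, named after its values were seen, fell by 0.25 on the log2 scale. *Nedd4l* did not pass (-0.12, adjusted p = 0.554). Of 9 genes for SGK1 degradation and folding, 0 passed in limma, edgeR or DESeq2, and 1 had an unadjusted p under 0.05. The smallest adjusted p values of that list belonged to *Syvn1* (-0.18, adjusted p = 0.151), *Hsp90aa1* (0.10, adjusted p = 0.502) and *Derl1* (-0.07, adjusted p = 0.522).

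Of 12 hypoxia and MYC regulators of *NDRG1*, 4 rose and 2 fell, with a median of 0.04. Beside them, 5.68% of all genes were higher and 4.74% lower, or 10.6% and 9.27% at a mean of at least 10 normalized counts. *Hif3a*, a hypoxia-inducible factor subunit, went from 3.32 ± 3.74 to 555 ± 21.3 normalized counts (SD, n = 4, adjusted p = 1.29e-08 in limma), and the size of that fold depends on the pseudocount of 1 because the vehicle level is near 0. *Epas1* rose with a log2 fold change of 1.06 (adjusted p = 1.23e-05), *Egln3* by 1.23 (adjusted p = 1.95e-04) and *Myc* by 0.38, while *Hif1a* fell by 0.26 and *Trp53* by 0.22. *Myc*, *Hif1a* and *Trp53* were named after their values were seen. Of 11 hypoxia-inducible genes 3 rose and 3 fell, with a median of -0.04. *Adm* rose by 0.90 (adjusted p = 4.12e-07) and *Bnip3* by 0.73 (adjusted p = 1.82e-05), with *Ddit4* at 0.26. *Vegfa* fell by 0.51 (adjusted p = 4.86e-04), with *P4ha1* at -0.26 and *Car9* at -0.76. *Ddit4*, *P4ha1* and *Car9* were named after their values were seen.

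Of 9 steroid receptors and receptor targets 7 rose and 1 fell, with a median of 1.83. *Fkbp5*, a chaperone of the receptor complex, rose from 334 ± 39.0 to 6407 ± 484 normalized counts (SD, n = 4, log2 fold change 4.26, adjusted p = 4.02e-15 in limma). *Tsc22d3* rose with a log2 fold change of 2.69 (adjusted p = 4.02e-15) and *Per1* by 1.83 (adjusted p = 3.34e-12). The log2 difference of *Ndrg2* lay just below that of *Fkbp5*, and that of *Sgk1* between *Per1* and *Tsc22d3*. The glucocorticoid receptor gene *Nr3c1* fell by 0.41, and the mineralocorticoid receptor gene *Nr3c2*, at 37.9 ± 21.0 normalized counts with vehicle and 14.7 ± 5.89 with aldosterone, did not pass (adjusted p = 0.0853). *Nr3c1* and *Nr3c2* were named after their values were seen.

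**Figure D5:**
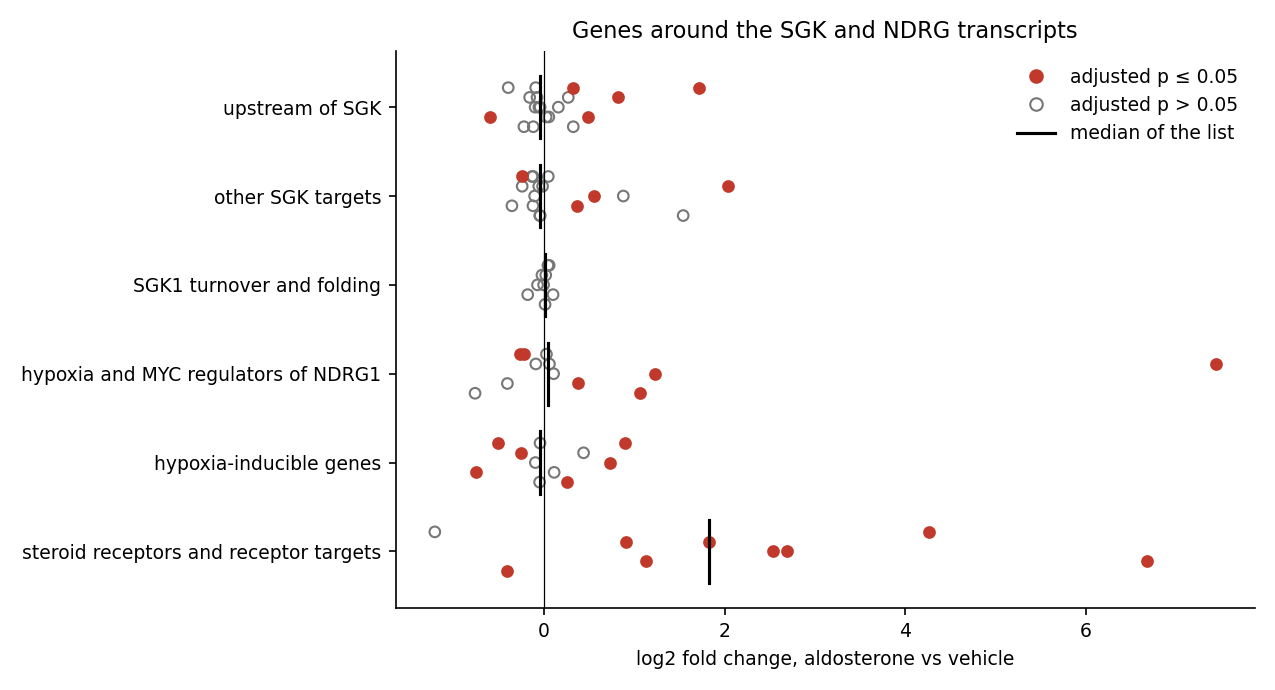
Log2 fold change with aldosterone against vehicle (x axis) of each measured gene in the 6 lists described, with filled points for an adjusted p of at most 0.05 in limma and a line at the list's median. The median is near 0 in 5 of them and at 1.83 for steroid receptors and receptor targets.

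Each marker list of another cell type had at most 1 gene past limma's adjusted threshold with aldosterone against vehicle. Of all genes 5.68% were higher and 4.74% lower. Of 6 myogenic markers measured in the aldosterone and vehicle table, 1 fell, *Acta1* (log2 fold change -1.26, adjusted p = 9.94e-04 in limma), and the markers summed to 4.73 to 9.95 FPKM per library with aldosterone and 13.3 to 18.7 with vehicle. Of 5 endothelial markers 1 rose, *Kdr* (1.88, adjusted p = 0.00183), with sums of 5.37 to 5.72 FPKM against 4.14 to 4.54, while *Pecam1* and *Cdh5* were at or under 15.4 normalized counts on average. Of 6 Schwann and glial markers 1 rose, *S100b* (0.50, adjusted p = 0.0141), with sums of 7.88 to 11.6 FPKM against 6.23 to 7.93. Of 6 macrophage markers 0 passed in limma, edgeR or DESeq2 and 0 had an unadjusted p under 0.05, with sums of 5.99 to 6.88 FPKM against 5.86 to 7.79. Among 8 fibroblast markers *Pdgfra* rose by 0.91 (adjusted p = 2.93e-08) and *Col3a1* fell by 0.43, and with the sample number as a block 7 of the 8 were lower. Their sum was 5518 to 6185 FPKM with aldosterone, 7118 to 7759 with vehicle and 6429 to 7289 with spironolactone. The part of these shifts in the *Ndrg2* and *Sgk1* differences was not tested.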

How the data were processed

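The 3 deposited tables, 1 per pair of treatments, hold signal values made by the authors as the gene count of each library divided by its size factor, beside their own fold changes and p-values from DESeq2, which were not used, and gene lengths. Submitters' processing notes name HISAT2 (2.0.5), featureCounts (1.5.0-p3) and mm39, and strandedness is not given in the sources used here. Whole reads were recovered from the smallest step of a column (100% of values within 0.02), in 2 columns from another table of the same library. Levels in the text are these reads divided by size factors over all 12 libraries, for the 25133 genes in all 3 tables, while fold changes were fitted on each deposited table.

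Each comparison was fitted with limma (3.58.1, R 4.3.3, trend) on log2(value + 1) over all genes of a table, with Benjamini-Hochberg adjustment and a threshold of 0.05. A fold change on that scale understates the change of low genes. The plan named edgeR only for whole counts. Same-numbered libraries of different treatments deviated together (sample number, 24 of 24 pairs with a correlation over 0.1, mean 0.219), so the sample number of the labels pairs the libraries, while the biological replicate number did not. P-values measure the spread between plates. Gene sets were not tested, and the scripts were tested on simulated data, where false calls gathered among genes with few reads.

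The 6 genes and the lists were chosen with earlier results of these data known. Named genes were the 6, up to 3 per list with the smallest adjusted p against vehicle, the 2 most correlated with each of the 6, and a leading marker per cell type. A planned search of the NDRG proteins for the SGK consensus was not run, and the list of related kinases is not reported here. Alternatives were edgeR (4.0.16), DESeq2 (1.42.0), TMM scaling, a pseudocount of 0.5, a mean of at least 10, blocks on either number, averaged plates and each library left out. Correlated plates and single sample numbers were added after seeing the data.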

Additional observations from a re-analysis of the deposited data

How the results depend on the processing

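*Sgk1* and *Ndrg2* kept their direction against vehicle and against spironolactone under every alternative run. When the replicate block was the sample number, 4 of the 6 genes were called against vehicle and 4 against spironolactone, in place of 2 each, with *Ndrg1* and *Ndrg4* added, and the block changed no other call of the 6. *Ndrg1* and *Ndrg4* did not pass against vehicle with plates correlated within a sample number (adjusted p = 0.0661 and 0.106 in limma) or averaged (0.493 and 0.559). Against spironolactone the values were 0.0294 and 0.191 correlated, and 0.451 and 0.659 averaged. Within sample number 1 alone, 0 of the 6 passed against spironolactone, where 4 of 27631 genes passed with 2 libraries per group. Of 85 genes in all 7 lists 30 were called, and 15 were when plates of a sample number were averaged, 1 in sample number 1 and 10 in sample number 2, fits with fewer samples. Leaving out each library gave 23 to 27 calls in the lists and 2 of the 6 in both aldosterone comparisons. Of 450 refits of single genes 441 stayed on their side of the threshold, 7 passed it and 2 fell behind it. In 11 the sign changed, all for genes not called. With 61 to 88 reads per vehicle library, *Ndrg2* had the fewest reads of the 6, and depth limits the precision of its vehicle level most.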
